A study of Mus musculus with 8 samples.

Results

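The genes described here are 6 SRC-family tyrosine kinases (Lck, Fyn, Lyn, Fgr, Yes1 and Src), the 2 UBASH3 phosphatases (Ubash3a and Ubash3b) and the adaptor Lat, 9 of the 24112 genes in the deposited tables. They were taken by name, and the set was selected on measured values, the higher RPKM of Ubash3a and the lower RPKM of Lck without Traf6. The contrast between the groups therefore chose the set, so it is described for these 9 genes with no test. RNA came from LSK cells (lineage-negative, Sca1+, Kit+), the marrow fraction that holds blood stem cells and early progenitors. The cells were sorted from C57BL/6 mice whose marrow had been replaced by transplantation. The WT group (4 libraries, genotype wild type) received Vav-Cre+ marrow and the KO group (4 libraries, genotype Traf6 knockout) Traf6-/-;Vav-Cre+ marrow, so both groups carry Cre, which the Vav promoter drives across blood cells. The age of the mice is not given in the sources used here, nor whether each library came from its own mouse, so the spread between libraries may be technical.

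SRC-family kinases sit at the inner face of the cell membrane and pass on signals from receptors that have no kinase of their own. CSK holds them inactive by phosphorylating a tyrosine in their tail, and the phosphatase CD45, encoded by Ptprc, removes that phosphate. In lymphocytes LCK and FYN phosphorylate antigen receptor chains, the kinases ZAP70 and SYK then dock there, and LAT becomes the scaffold on which signalling complexes gather. UBASH3A (STS-2, also TULA) and UBASH3B (STS-1, also TULA-2) bind ubiquitin and the ubiquitin ligase CBL; UBASH3B is a strong phosphatase of ZAP70 and SYK, and UBASH3A has weak phosphatase activity. In blood progenitors the same machinery acts downstream of KIT, FLT3 and other cytokine receptors.

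RefSeq promoter windows of build GRCm38.p6 were found for 8 of the 9 genes (10 windows); Lyn was not matched. The 250 bases before the transcription start are shown for Ubash3a and for both starts of Lck, the 2 genes whose difference chose the set. Lck is known for a proximal promoter active in thymocytes and an upstream, distal promoter active in mature T cells. Capitals mark matches, on either strand, to the letters TTCCGG (a core bound by ETS factors), TGTGGT (RUNX factors), CAGGTG (E-box factors) or the NF-κB consensus. The Ubash3a window is chr17:31207816-31208065, plus strand; the proximal Lck window is chr4:129558373-129558622 and the distal one chr4:129573642-129573891, both minus strand. All 3 are written on the strand of the gene.
Ubash3a: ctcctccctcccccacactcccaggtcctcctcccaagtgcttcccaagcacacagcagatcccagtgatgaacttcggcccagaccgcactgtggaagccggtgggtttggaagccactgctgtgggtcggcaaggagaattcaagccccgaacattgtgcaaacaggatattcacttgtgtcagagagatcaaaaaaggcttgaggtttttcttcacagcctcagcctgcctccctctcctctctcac
Lck proximal: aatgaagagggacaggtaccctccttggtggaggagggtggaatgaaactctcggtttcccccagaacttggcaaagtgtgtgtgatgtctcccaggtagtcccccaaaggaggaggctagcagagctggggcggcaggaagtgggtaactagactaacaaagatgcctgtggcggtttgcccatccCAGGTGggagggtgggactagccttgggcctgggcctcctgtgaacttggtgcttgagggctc
Lck distal: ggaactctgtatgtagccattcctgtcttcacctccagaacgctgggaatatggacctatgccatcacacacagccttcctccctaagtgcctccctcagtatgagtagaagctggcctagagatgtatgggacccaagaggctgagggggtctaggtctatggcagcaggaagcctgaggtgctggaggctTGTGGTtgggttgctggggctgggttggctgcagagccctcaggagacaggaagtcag

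The Ubash3a window held none of the 4 motifs, the proximal Lck window held CAGGTG and the distal one TGTGGT. Of all 32851 mouse windows of this length, 17.2% held CAGGTG, 14.0% TGTGGT, 12.0% TTCCGG and 7.25% the NF-κB consensus. Among the 10 windows of these genes, CAGGTG was also found in 1 of Ubash3b, TGTGGT also in Yes1, TTCCGG in Fgr and Yes1, and the NF-κB consensus in Src alone, as a match that reads the same on both strands and overlaps none of the others. The genes also differed in CpG content. Src and Yes1 held 40 and 37 CpG in 250 bases, Fyn 21, Fgr 9 and Lat 6, whereas Ubash3a held 5, both Ubash3b windows 3, and the 2 Lck windows 3 and 1, against a median of 6 over all windows. A match is a description of letters only. Each table gives 1 value per gene, so the 2 promoters of Lck are not told apart below.

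Levels are RPKM, reads scaled to gene length and library size, as the authors deposited them; being per length, they can be compared between genes. Depth, estimated from the steps between low values, was about 19.3 to 30.6 M reads per library. Among 3943 abundant genes (mean over 20 RPKM) the number listed at 0 was 175 in KO3, 61 in KO4, 47 in WT2 and 6 to 20 elsewhere, so a 0 is written as listed at 0 and does not show absence. Lane 5 held KO3 and KO4, and lane 4 the other 6 libraries. Traf6 was at 14.9, 3.52, 9.40 and 7.10 RPKM in the WT libraries and 0.613, 0.818, 0 and 0.00721 in KO. The 11276 genes that reached 1 RPKM in 4 or more libraries were tested with limma on log2(RPKM + 1), which understates the difference of low genes; log2 differences are KO minus WT. No gene passed an adjusted p of 0.05 (0%; smallest adjusted p = 0.238), and 847 (7.51%) had an unadjusted p under 0.05; the groups did not overlap in 5.92% of the genes tested. Of the 9 genes, 6 passed the filter on low values, and Fgr, Yes1 and Src did not. In bulk RNA, fewer cells of a type and less RNA per cell cannot be told apart.

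In WT, Lck, Fyn, Lat and Lyn were the abundant transcripts of the set. Lck averaged 27.2 ± 8.46 RPKM (SD, n = 4), Fyn 23.4 ± 5.83, Lat 22.7 ± 5.58 and Lyn 20.0 ± 5.34. By WT mean they lay at the 80.7, 77.5, 77.0 and 74.0 percentiles of the 15390 genes listed above 0 in at least 1 library. Each of these 4 overlapped its neighbour in the order. Ubash3b came next at 8.75 ± 3.71 RPKM, below Lyn in 4 of 4 libraries, and Ubash3a followed at 4.60 ± 2.50, below Ubash3b in 4 of 4. Yes1, Fgr and Src were the lowest, each listed at 0 in at least 1 WT library. The smallest p that a 2-sided exact sign-flip test can give with 4 libraries is 0.125, so none of the 8 neighbouring pairs could be shown to differ.

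The order by mean was another in KO. Lyn led at 22.9 ± 4.91 RPKM, then came Fyn at 19.9 ± 8.61, Ubash3a at 17.2 ± 3.20, Lat at 15.0 ± 3.71, Lck at 9.29 ± 9.09 and Ubash3b at 5.16 ± 3.99. Ubash3a stood at the 71.1 percentile of listed genes by KO mean, from 40.9 in WT, and Lck at 57.7, from 80.7. The choice of the set used the differences of Ubash3a and Lck, so nothing is read from their change of place. Neighbours in the KO order also overlapped. The orders depend on single libraries: 6 of the 9 genes took another rank in WT without WT3 and 2 without WT1, and in KO 2 did without KO2 and 3 in lane 4 alone.

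**Figure D1:**
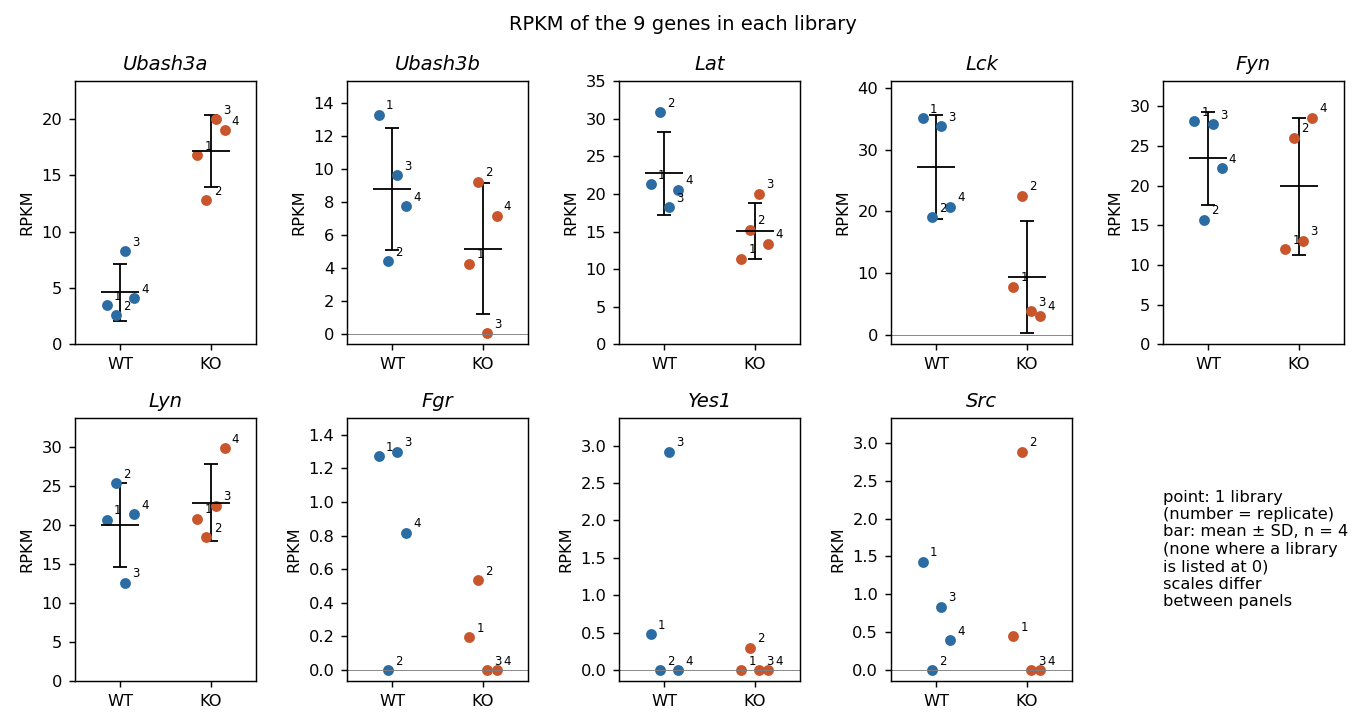
RPKM (vertical axis, a separate scale for each gene) in the 4 WT and 4 KO libraries; points are libraries numbered by replicate, and bars are the mean ± SD (n = 4), drawn only for genes above 0 in every library. For Ubash3a alone all KO points lie above all WT points; KO2 stands among the WT values of Lck.

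Ubash3a (Entrez 328795) was higher in every KO library than in any WT library. Its levels were 3.49, 2.60, 8.24 and 4.08 RPKM in WT1 to WT4 and 16.8, 12.8, 20.0 and 19.0 RPKM in KO1 to KO4. The lowest KO value, in KO2, was 4.54 RPKM above the highest WT value, in WT3. The ratio of means was 3.73, and the log2 difference was 1.77 ± 0.38 (SE). Of all tested genes 2.05% had all KO values above all WT values, and Ubash3a was the only 1 of the 6 tested genes of the set with that separation; the choice of the set used it, so nothing is read from it. In the lane 4 libraries alone the log2 difference was 1.58.

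Ubash3b (72828), the paralog, had no such separation. It was at 13.3, 4.39, 9.62 and 7.73 RPKM in the WT libraries and 4.25, 9.23, 0.0137 and 7.15 RPKM in KO. KO3 was close to 0 and WT1 was the highest, with the other 6 libraries between them and intermingled. The log2 difference was -1.0 ± 0.73 (SE), and it was -0.33 in lane 4 alone.

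Within each library the balance of the pair went one way. Ubash3a made up 20.8, 37.2, 46.1 and 34.5% of the summed RPKM of the pair in WT, and 79.8, 58.1, 99.9 and 72.7% in KO. Ubash3b was thus the more abundant in 4 of 4 WT libraries and Ubash3a in 4 of 4 KO libraries. The ratio of Ubash3b to Ubash3a, which does not depend on how a library was scaled, ran 3.80, 1.69, 1.17 and 1.90 over the WT libraries against 0.253, 0.722, 0.000684 and 0.376 over the KO libraries. The sum of the pair was 6.99 to 17.9 RPKM in WT and 20.0 to 26.2 RPKM in KO. These shares rest on the gene that chose the set and have no test.

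**Figure D2:**
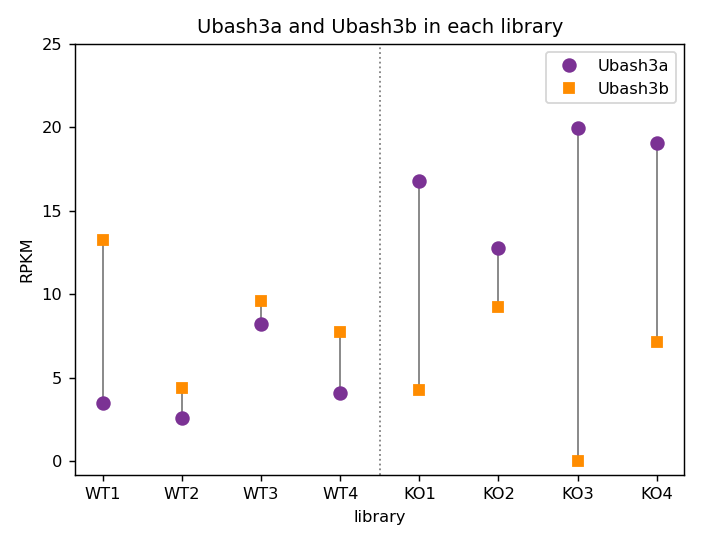
RPKM (vertical axis) of Ubash3a (circles) and Ubash3b (squares) in each library (horizontal axis), joined by a line. The squares lie above the circles in WT1 to WT4 and below them in KO1 to KO4.

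Lck (16818), the kinase that starts T cell receptor signalling, was lower in 3 of the 4 KO libraries. It was at 35.2, 19.1, 33.8 and 20.7 RPKM in the WT libraries and 7.74, 22.6, 3.82 and 3.04 RPKM in KO. KO2 lay inside the WT range, above WT2 and WT4, and the other KO libraries lay below all WT libraries. The ratio of means, WT over KO, was 2.93, and the log2 difference was -1.77 ± 0.53 (SE). The lane 5 libraries KO3 and KO4 held the lowest values; the log2 difference was -0.92 in lane 4 alone and -1.07 when WT2, KO3 and KO4 were left out. With library weights, which lean on KO2, it was -0.69.

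Lat (16797), the scaffold that ZAP70 phosphorylates, was at 21.3, 30.9, 18.2 and 20.6 RPKM in the WT libraries and 11.4, 15.2, 20.1 and 13.4 RPKM in KO. KO3 lay above WT3, and the other 3 KO libraries lay below all of WT. The log2 difference was -0.57 ± 0.27 (SE), and -0.72 in lane 4 alone.

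Fyn and Lyn overlapped between the groups. Fyn (14360) was at 28.1, 15.7, 27.8 and 22.2 RPKM in the WT libraries and 12.0, 26.0, 13.1 and 28.5 RPKM in KO. Its KO libraries lay in pairs, KO1 and KO3 below all of WT and KO2 and KO4 near the highest WT values (log2 difference -0.29 ± 0.34). Lyn (17096), which both activates and restrains myeloid and B cell signalling, was at 20.6, 25.3, 12.6 and 21.3 RPKM in the WT libraries and 20.8, 18.4, 22.4 and 29.8 RPKM in KO. WT3 was the lowest library and KO4 the highest (0.21 ± 0.27).

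The other kinases were near the limit of detection. Fgr (14191), a kinase of mature myeloid cells, was at 1.27, 0, 1.30 and 0.817 RPKM in the WT libraries and 0.195, 0.536, 0 and 0 in KO. Src (20779), the founder of the family, was at 1.43, 0, 0.838 and 0.392 RPKM in the WT libraries and 0.444, 2.89, 0 and 0 in KO. Yes1 (22612), a ubiquitous kinase close to Src, was at 0.479, 0, 2.92 and 0 RPKM in the WT libraries and 0, 0.296, 0 and 0 in KO. WT2, KO3 and KO4, the libraries that listed the fewest genes, were the ones in which all 3 genes were listed at 0. No direction is read for these genes, since most of their zeros fall in those libraries.

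Blk (12143), a kinase of the same family known from B cells, was read beside them. It was listed at 0 in WT1, WT2 and every KO library, and was at 0.519 and 0.405 RPKM in WT3 and WT4.

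Summed over the 6 kinases of the set, the level reached 87.1, 60.1, 79.2 and 65.5 RPKM in WT and 41.1, 70.7, 39.3 and 61.4 RPKM in KO. This averaged 73.0 ± 12.4 and 53.1 ± 15.4 RPKM (SD, n = 4), and KO2 and KO4 lay within the WT range. Lck, Fyn and Lyn together made up 93.6 to 100% of the sum in every library. The share of Lck was 31.7 to 42.7% in WT and 18.8, 31.9, 9.72 and 4.95% in KO, so that KO2 lay within the WT range and the other KO libraries below it. The share of Lyn was 15.9 to 42.1% in WT and 50.5, 26.0, 57.1 and 48.5% in KO. In KO1, KO3 and KO4 Lyn outweighed Lck by a ratio of 2.68, 5.87 and 9.80. In KO2 the ratio was 0.816, within the WT range of 0.372 to 1.33. The sum, the shares and this ratio all hold Lck, at a mean of 27.2 RPKM in WT and 9.29 in KO. Its lower level chose the set, so none of them is read as a separate result, and they have no test.

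**Figure D3:**
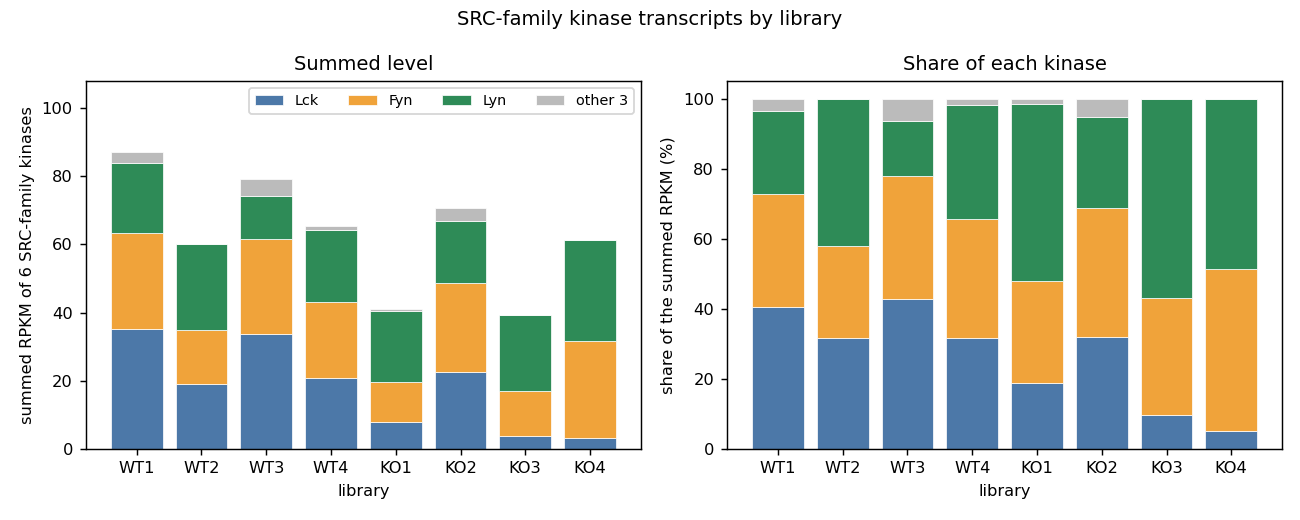
Left, summed RPKM of the 6 SRC-family kinases of the set in each library; right, the share of Lck, Fyn, Lyn and the other 3 kinases pooled in that sum, in percent. Lck (lowest segment) takes 31.7 to 42.7% in WT and 4.95 to 18.8% in KO1, KO3 and KO4, while KO2, at 31.9%, lies within the WT range. The lower level of Lck chose the set, and it enters both panels.

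By likeness of profile over the 8 libraries (mean absolute difference of z-scored log2 levels, among 8668 tested genes with a mean of at least 5 RPKM), the genes nearest to Ubash3a were Psmb2, Bace1 and Dok3, with differences of 0.156, 0.178 and 0.201. Dok3, an adaptor that recruits inhibitors to immune receptors, was at 6.73, 6.28, 14.7 and 13.7 RPKM in the WT libraries and 25.2, 18.9, 33.2 and 32.7 RPKM in KO. Both Dok3 and Ubash3a had KO2 as the lowest KO library and KO3 as the highest. The genes nearest to Lck were Nudt2, Atxn10 and Ints10 (0.174, 0.196 and 0.198). Within the set, Ubash3b and Fyn were closest to Lck, at ranks 426 and 937, and Lat was at rank 3423. With 8 libraries and 8668 genes, near matches are found for most profiles, and these are given as a description.

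The rest of the pathway was read from 3 lists drawn up from background knowledge, none of whose genes passed limma's adjusted p of 0.05. At an unadjusted p under 0.05, 3 of 75 tested genes were higher in KO and 6 lower, against 2.77% and 4.74% of all genes tested. Among 22 tested regulators of SRC-family kinases the median log2 difference was -0.26, against -0.14 for all genes. Csk, the kinase that switches the family off, averaged 102 ± 9.72 RPKM in WT against 114 ± 24.0 in KO (0.14 ± 0.19 on the log2 scale). The phosphatase gene Ptprc was at 30.2 ± 9.53 and 22.3 ± 6.71 RPKM (-0.40 ± 0.31). Pag1, the membrane anchor that brings CSK to the kinases, was at 13.0, 10.1, 10.1 and 7.27 RPKM in the WT libraries and 5.46, 4.81, 2.30 and 6.57 in KO, with all KO libraries below all WT libraries as in 3.88% of all genes (-0.98 ± 0.41, unadjusted p = 0.0371 and adjusted p = 0.640 in limma, a model over all genes).

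CBL ubiquitin ligases, the partners of the UBASH3 proteins, overlapped between groups: Cbl was at 15.4 ± 3.34 and 18.5 ± 8.87 RPKM and Cblb at 6.35 ± 2.24 and 5.01 ± 1.06. The inhibitory phosphatase gene Ptpn6 (SHP-1) was at 75.1 ± 12.0 and 90.4 ± 3.85 RPKM, with all KO values above all WT values, and Ptpre at 39.3 ± 7.26 and 26.0 ± 7.76. Named after their values were seen, the regulators besides Pag1 and Ptpre with an unadjusted p under 0.05 were Dok3 and Ptpn1, higher in KO by 1.38 ± 0.34 and 0.57 ± 0.23 on the log2 scale, and Dok2, at 14.1 to 24.3 RPKM in the WT libraries and 5.71, 11.6, 9.80 and 0 in KO. Dok3 and Ptpn1 lay without overlap above WT and Dok2 below it. In all, 3 of the 22 tested regulators were separated upward (Ptpn1, Ptpn6 and Dok3), against 2.05% of all genes tested. Another 3 were separated downward (Pag1, Ptpn22 and Dok2), against 3.88%. Dok2 and Dok3, adaptors of 1 family, thus lay in opposite directions, while Dok1 of that family overlapped between groups (-0.44 ± 0.96). The 0 of Dok2 was in KO4, a library that lists many abundant genes at 0. The adjusted p in limma was 0.441 for Dok3, 0.634 for Ptpn1 and Dok2 and 0.708 for Ptpn6.

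Among 31 tested substrates and adaptors the median log2 difference was -0.12. Syk, the kinase that takes the place of ZAP70 outside T cells, was at 37.9 ± 6.05 RPKM in WT against 32.2 ± 6.36 in KO, whereas Zap70 was listed at 0 in all libraries but WT4, at 0.550 RPKM. The 3 most abundant were Skap2, at 112 ± 24.6 and 94.7 ± 22.1 RPKM, Grb2, at 94.9 ± 2.63 and 97.0 ± 12.2, and Hcls1, at 85.2 ± 13.5 and 81.1 ± 18.7. Lcp2, the adaptor SLP-76 that joins LAT complexes, and Gab1 were the 2 with an unadjusted p under 0.05 and were named for it. Lcp2 was at 19.7 to 26.9 RPKM in WT and 9.43 to 15.8 in KO without overlap (-0.80 ± 0.25, limma adjusted p = 0.561). Of the 31, 0 were separated upward and 2 downward (Lcp2 and Gab1), against 2.05% and 3.88% of all genes tested.

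Among 22 tested receptors the median log2 difference was 0.02. Kit was at 78.4 ± 4.24 RPKM in the WT libraries and 50.6, 73.7, 61.7 and 113 RPKM in KO, which spanned the WT values. The immune receptor chain gene Fcer1g was at 83.9 ± 22.6 and 136 ± 71.0 RPKM, and the integrin gene Itgb1 at 75.4 ± 13.6 and 62.3 ± 1.70. The 2 receptors with an unadjusted p under 0.05, Csf1r (higher) and Flt3 (lower), are tyrosine kinases that mark myeloid and lymphoid-primed progenitors. Csf1r was at 0.542 to 5.79 RPKM in WT and 6.04 to 22.0 in KO, and Flt3 at 59.3 to 89.2 and 31.4 to 54.0. Both passed with library weights, in which limma called 164 of the 11276 genes tested. Of the 22 receptors, 1 was separated upward (Csf1r) and 2 downward (Flt3 and Itgb1), against 2.05% and 3.88% of all genes tested.

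**Figure D4:**
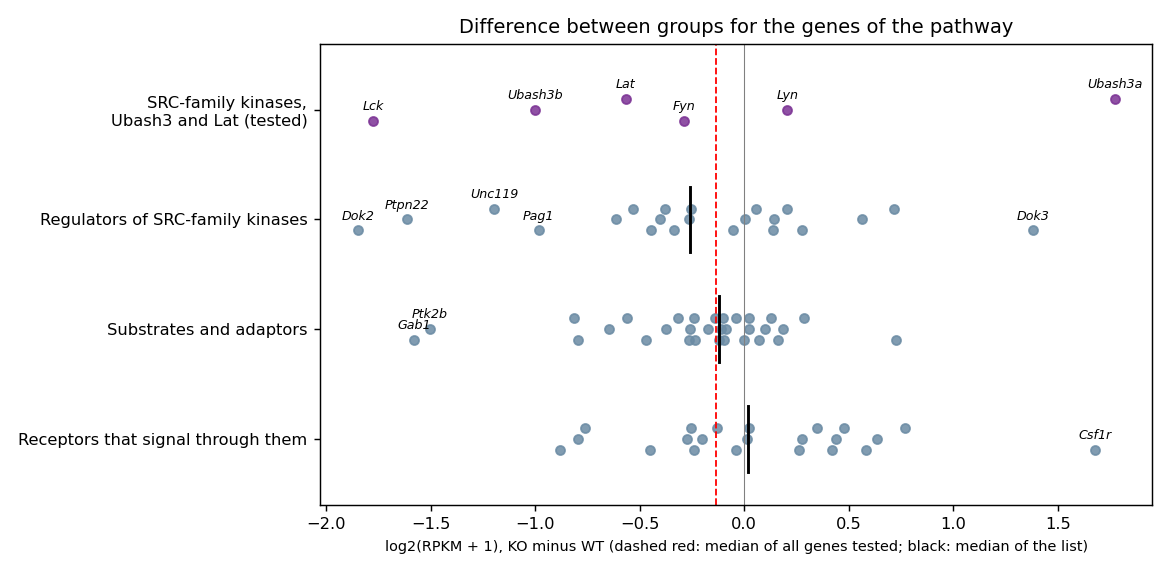
Log2 difference, KO minus WT, of log2(RPKM + 1) (horizontal axis) for the 6 tested genes of the set and for each tested gene of the 3 lists; black ticks are list medians and the dashed line is the median of all genes tested, -0.14. The list medians of -0.26, -0.12 and 0.02 lie near that line, and Lck and Ubash3a lie at -1.77 and 1.77.

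Lck, Lat and Ubash3a are best known from T cells, so T cell markers were read beside them. Their summed level over 16 markers was 18.2 to 34.1 RPKM in WT and 9.72 to 49.6 in KO. Thy1 and Cd247 (CD3ζ), the markers found in every library, were at 7.17 to 16.9 and 3.79 to 6.90 RPKM in the WT libraries and 1.28 to 32.3 and 2.40 to 8.79 RPKM in KO. The defining marker Cd3g and the marker Themis were listed at 0 in all libraries, Cd3e in all 4 WT libraries and 3 KO libraries, and 8 of the 16 never reached 1 RPKM. Lck at 19.1 to 35.2 RPKM and Lat at 18.2 to 30.9 RPKM in WT thus stood beside Cd3e, Cd3g and Zap70 at or near 0. Cd3d, of the same receptor complex, was at 3.42, 0.0781, 1.63 and 1.87 RPKM in the WT libraries and 0.441, 0, 0.0666 and 0 in KO, with 3 of 4 WT libraries above all KO libraries, and its part in the level of Lck was not tested. Trat1 was listed at 0 in every WT library and stood at 1.29, 0.728, 0 and 16.2 RPKM in KO, with KO4 far above the rest.

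**Figure D5:**
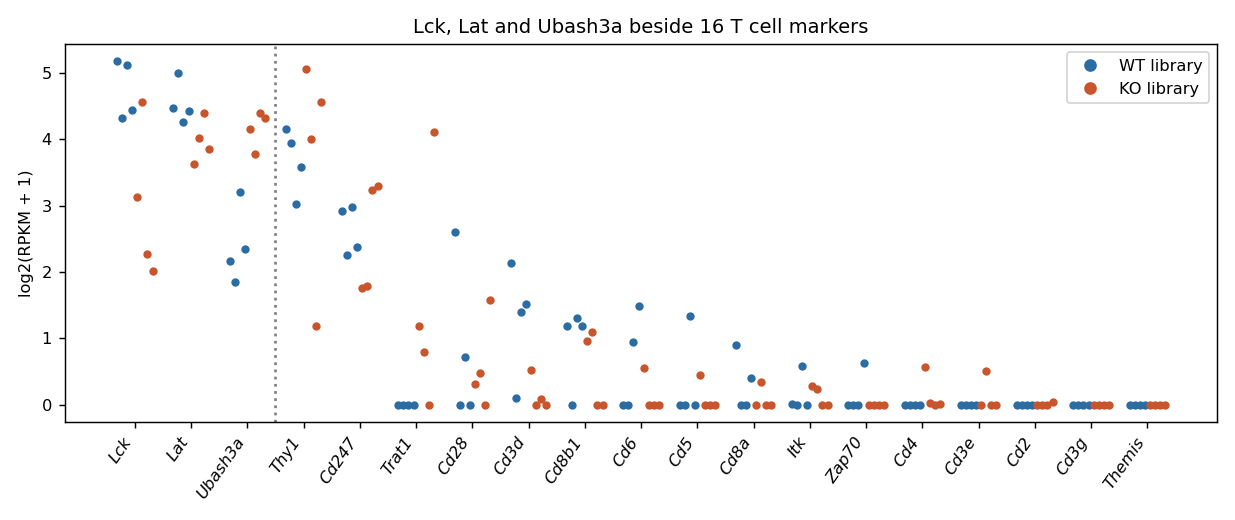
Level as log2(RPKM + 1) (vertical axis) of Lck, Lat and Ubash3a, left of the dotted line, and of 16 T cell markers; each point is a library. Most T cell markers lie at or near 0 in both groups, while Lck, Lat and Ubash3a do not.

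Markers of other classes were read in the same way, and none passed an adjusted p of 0.05 in limma. Of all genes tested, 61.0% had a negative log2 difference. All 10 granulocyte-monocyte progenitor markers had positive log2 differences (median 1.45). Of these, 7 had an unadjusted p under 0.05 in limma, against 2.77% of all genes tested that were higher in KO at that p. The summed level of the 10 was 629 to 1865 RPKM in WT and 2133 to 8048 in KO, with none at 0 throughout and Mpo highest. This sum and Ubash3a were both higher in every KO library than in any WT library. Within KO their order differed, the sum being highest in KO1 and lowest in KO4. All 5 tested early lymphoid markers had negative log2 differences (median -0.74), with summed levels of 183 to 272 RPKM in WT and 70.2 to 185 in KO; these sums overlapped (WT2 below KO3), Dntt was the most abundant, and KO1 was the lowest library. The 10 markers of the LSK gate were all negative (median -0.43; summed level 639 to 713 RPKM in WT and 481 to 604 in KO). The part of any of these in the levels of Ubash3a, Lck and Lat was not tested.

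The remaining classes overlapped between the groups in summed level, unlike the granulocyte-monocyte progenitor and LSK gate markers. Mature myeloid markers summed to 131 to 184 RPKM in WT and 168 to 302 in KO, mast cell and basophil markers to 79.0 to 140 and 129 to 190, megakaryocyte and platelet markers to 57.9 to 98.8 and 46.6 to 136, and erythroid markers to 128 to 253 and 59.1 to 221. The mature myeloid sum was mostly Lyz2, at 152 ± 23.2 RPKM in WT against 148 ± 23.5 in KO (SD, n = 4). Of the 5 tested markers, 3 had positive and 2 negative log2 differences, and the median, 1.87, was the value of Itgam. Cd14 and Lyz2 were the negative ones, at -0.17 and -0.04. Lcn2 and S100a9 were positive, with highest values of 142 RPKM in KO1 and 35.7 RPKM in KO4. Each of these 2 was also listed at 0 in 1 KO library. Itgam, chosen after its values were seen, was at 0.707 to 2.76 RPKM in WT against 5.92 to 22.8 in KO (adjusted p = 0.515 in limma). B cell markers summed to 8.62 to 22.1 and 6.78 to 18.4 RPKM. Cd79b was the most abundant of them, at 4.78 to 16.3 RPKM in WT and 6.65 to 16.1 in KO, whereas Cd79a, Ms4a1, Pax5 and Igll1 were listed at 0 throughout. NK cell markers summed to 402 to 458 and 385 to 726 RPKM, nearly all of it Nkg7, with Klrd1 listed at 0 throughout.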

How the data were processed

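RNA was measured in 8 libraries (4 WT, 4 KO; groups from the sample titles). Libraries were made from poly(A) RNA selected from 100 ng of input, per the labels' protocols. The authors deposited RPKM, 1 value per Entrez gene; the unit is inferred from the values. TopHat, edgeR and mm9 are named, without role or version, per the submitters' processing notes; for counting, annotation and use of strand, nothing is given in the sources used here. Of 24112 IDs, 24029 (99.7%) matched a symbol in a RefSeq GRCm38.p6 table, used for names; promoter sequences are from RefSeq on that build, and no other coordinates are given.

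Depth was estimated from values under 0.2 RPKM of genes with 1 transcript: 52.8 to 65.8% of them were whole reads within 0.03 reads, too few to rebuild read counts, so a count test was not used. Levels were analysed as log2(RPKM + 1) with limma 3.58.1 in R 4.3.3 (genotype, eBayes with trend and robust variance, Benjamini-Hochberg adjustment) after the filter on low values, and the test was checked on simulated data. The genes, lists and tests were chosen with earlier results of these data known. Named genes are the 9, Blk, the 3 most abundant of each list, 8 pathway genes named whatever their values (Csk, Pag1, Ptprc, Cbl, Cblb, Syk, Zap70 and Kit), and the 3 genes nearest in profile to Ubash3a and to Lck. Outside this rule, Dok1, Dok2, Ptpn1, Ptpn22, Lcp2, Gab1, Csf1r, Flt3 and Itgam were named after their values were seen. For 10 lists of cell type markers the summed level is given, and only markers that bear on the text are named. The summed kinase level covers the 6 kinases of the set; 1 further gene is not reported here, and Blk is not in the sum. Of all markers, Ly6g alone was not matched. Leaving out WT2, KO3 and KO4 together was chosen after seeing the data.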

Additional observations from a re-analysis of the deposited data

Results flagged for a closer look

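Of 25 groups of 4 libraries checked, 3 held a value whose gap to the nearest other library took up most of the range of its group. About 1 in 20 groups would do so by chance if values were normally distributed and groups independent. Yes1 was at 2.92 RPKM in WT3, against 0.479 RPKM or less in the other WT libraries. In KO2 it was at 0.2955 RPKM while the other 3 KO libraries were listed at 0. Src was at 2.885 RPKM in KO2, against 0.444 RPKM or less in the other KO libraries. All 3 values belong to genes under the filter on low values, and some groups share genes, so the count cannot be set against that rate.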

How the results depend on the processing

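Limits come first from the libraries: WT2, KO3 and KO4 list many abundant genes at 0, KO3 and KO4 are the only libraries of lane 5, and RPKM without read counts allow no interval for counting error. Of the 11276 genes tested, limma called 0 in the reported fit, 2 in lane 4 alone and 3 without WT2, KO3 and KO4. With library weights, which lean on KO2, the count was 164, and it was 0 to 2 when each library was left out in turn (2 without KO3). It stayed 0 at an adjusted p under 0.1, without the filter, with a pseudocount of 0.1, with lane as a covariate and after quantile normalization. With the replicate number as a block it was also 0; the numbers do not pair the libraries (correlations of deviations -0.08 to -0.04 in 4 pairs, with no WT library closest to its own number). Pathway genes called numbered 0, and 2 with library weights (Csf1r and Flt3); they numbered 0 in every fit that left out 1 library.

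The log2 difference of Ubash3a was 1.31 with library weights and 1.59 to 2.04 when a library was left out; that of Lck was -0.69 with weights and -2.30 to -1.45. The ranges on leaving out a library were -1.39 to -0.28 for Ubash3b, -0.49 to -0.09 for Fyn, 0.01 to 0.33 for Lyn, -0.71 to -0.42 for Lat, -0.86 to -0.46 for Fgr, -0.75 to -0.09 for Yes1 and -0.48 to 0.17 for Src. With a pseudocount of 0.1 Fgr was at -1.64 and Yes1 at -1.37. Ubash3a, Ubash3b, Lck, Fyn, Lyn and Lat kept their sign in all 16 alternatives, Ubash3b at -0.28 without KO3, and Src kept it in 6 of 13. The 16 are not separate checks. The fit without the filter and the replicate block return the reported difference, and lane as a covariate returns that of lane 4 alone. For Ubash3a and Lck the sign also chose the set. The difference in the ratio of Lyn to Lck, 3.97, was 0.92 in lane 4 alone, 1.09 without WT2, KO3 and KO4, and 2.30 to 5.29 with 1 library left out; that of the ratio of Ubash3b to Ubash3a was -2.12 to -1.25, and that of the summed kinase level -25.7 to -15.1 RPKM. Quantile normalization and weights were not run for Fgr, Yes1 and Src, which were under the filter.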

Other observations

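Genes that lie beside these 9 in the GRCm38 annotation give a further reading. Ubash3a lies between Tmprss3, a membrane serine protease gene at 4.06 ± 2.20 RPKM in WT and 6.89 ± 3.23 in KO (SD, n = 4), and Rsph1, which is listed at 0 in at least 1 library of each group. Lck lies between Hdac1, a histone deacetylase gene at 80.3 ± 14.5 and 66.9 ± 20.7 RPKM, and Fam167b, listed at 0 in all libraries. Exons of Lyn share bases with Gm26857, and those of Yes1 with Gm10461, genes of the opposite strand, and the microRNA genes Mir8119 and Mir7058 share bases with exons of Lck and Lat on the same strand. Reads of the opposite-strand overlaps cannot be assigned, since whether the counting used strand is not given in the sources used here. Those shared with the microRNA genes could not be told apart by strand in any case.

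Among regulators that the naming rule did not reach, Ptpn22, a phosphatase that acts on LCK and ZAP70, was at 23.5, 13.6, 18.2 and 19.2 RPKM in the WT libraries and 12.4, 9.02, 0.0143 and 10.7 RPKM in KO, with all KO values below all WT values, as in 3.88% of all genes tested. It was chosen after its values were seen, and its value near 0 was in KO3, as for Ubash3b.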
